A study of Mus musculus with 6 samples.

Results

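Pi16 adventitial fibroblasts were examined in the 3 lineage-negative libraries of a mouse study of the Marfan aortic root. A cell was kept with at least 1000 UMIs (unique molecular identifiers, one per captured RNA molecule), at least 500 genes and at most 10% mitochondrial UMIs. Fibroblasts were then gated by at least 10 Dcn UMIs, under 5 summed Tyrobp and Fcer1g UMIs, under 2 summed Pecam1 and Cdh5 UMIs, and under 10 summed Chad, Cytl1 and Epyc UMIs. Within that gate, cells with at least 3 Pi16 UMIs were taken as members, so Pi16 itself chose them. The rule found 2751 Pi16 cells among 10603 gated fibroblasts, in a series of 60200 barcodes of which 41759 passed the limits on UMIs, genes and mitochondrial share.

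Each library came from 4 pooled male animals of 24 weeks, and the tissue was the aortic root with the ascending aorta. The first library is labelled Klf4-floxed on the Marfan background, with the C1041G/+ Fbn1 genotype. The Marfan library carries C1041G/+ Fbn1 without the floxed label, and the control library comes from littermates labelled control for both genes. Cells had been sorted on tdTomato, and the 3 libraries used here hold the tdTomato-negative fraction, labelled as outside the smooth muscle lineage. The promoter that drives the lineage trace and the Klf4 deletion is not given in the sources used here. There was 1 library for each of the 3 genotypes, so no test was possible, every ratio between genotypes compares libraries and not conditions, and all intervals are 95% intervals for counting error only.

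PI16, a peptidase inhibitor, marks fibroblasts of the outer wall of vessels in many mouse tissues. Such cells are often called universal or adventitial fibroblasts and share Dpp4, Cd248, Ly6c1, Clec3b and Sema3c. They lie around vessels, make microfibrils and proteoglycans, and are held to give rise to other fibroblast states. In the aortic root they belong to the adventitia, outside the smooth muscle layers, and Marfan mice carry a mutation in fibrillin-1, the main microfibril protein, which Pi16 fibroblasts themselves make.

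The libraries held 7088 barcodes in the library labelled Klf4-floxed, 7879 in the Marfan library and 5167 in the control library, with between 47750360 and 81181913 UMIs each. Klf4 stood at 358 UMIs per 1000000 UMIs (CPM) in the whole library labelled Klf4-floxed, 268 CPM in the Marfan library and 280 CPM in the control library. The floxed label was thus not accompanied by less Klf4 RNA in these cells. They are lineage-negative, and a 3′ count outside a deleted part checks nothing. Any pair of these libraries shared 9 to 13 barcodes, and 0 or 1 among Pi16 cells.

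Pi16 cells made up 20.3% of gated fibroblasts in the library labelled Klf4-floxed (789 of 3891, Clopper-Pearson interval 19.0 to 21.6%). The share was 26.3% in the Marfan library (1010 of 3841, 24.9 to 27.7%) and 33.2% in the control library (952 of 2871, 31.4 to 34.9%). The 3 intervals did not overlap, and the control library had the highest share. Of all kept cells, Pi16 cells were 12.6%, 14.2% and 21.1% in the libraries labelled Klf4-floxed, Marfan and control.

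The threshold is a raw count, which moves with depth. Members had a median of 11888 UMIs in the library labelled Klf4-floxed, 12001 in the Marfan library and 9781 in the control library, against 10623, 10125 and 9843 UMIs in the other gated fibroblasts of the same libraries. After every cell had been thinned to 4000 UMIs, at least 1 Pi16 UMI was found in 28.5%, 34.1% and 43.8% of gated fibroblasts in the same order of libraries, so the order of shares was the same at equal depth. Thinning left out 29, 33 and 90 members and 263, 278 and 229 other gated fibroblasts. Without thinning those shares were 41.2%, 46.1% and 57.2%.

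Free RNA gives a background. In myeloid cells, which should lack Pi16, the thinned share with a Pi16 UMI was 2.84%, 3.79% and 4.91% in the libraries labelled Klf4-floxed, Marfan and control. At the member threshold, 1 of 881, 3 of 1510 and 2 of 421 myeloid cells had 3 or more Pi16 UMIs. Their median depths were 8902, 9029.5 and 10564 UMIs, against 10933, 10591 and 9838 UMIs in gated fibroblasts. Pi16 was not limited to fibroblasts: 33.5%, 26.9% and 23.8% of endothelial cells had a Pi16 UMI after thinning. Their intervals of 27.1 to 40.4%, 21.5 to 32.8% and 14.9 to 34.6% overlapped (206, 253 and 80 cells), so no order of libraries is read.

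Among the members, Pi16 counts were spread widely. The median was 6, 7 and 7 Pi16 UMIs in the libraries labelled Klf4-floxed, Marfan and control, and the highest cells had 370, 244 and 215. Members with over 20 Pi16 UMIs were 11.8% of Pi16 cells in the library labelled Klf4-floxed (93 cells), 19.3% in the Marfan library (195 cells) and 11% in the control library (105 cells). Members with 3 to 5 were 47.9%, 39.6% and 40.5%. The Marfan library thus had fewer Pi16 cells per fibroblast than the control library and a larger share of them with very high Pi16, and results that this make-up touches are given by Pi16 class below.

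**Figure D1:**
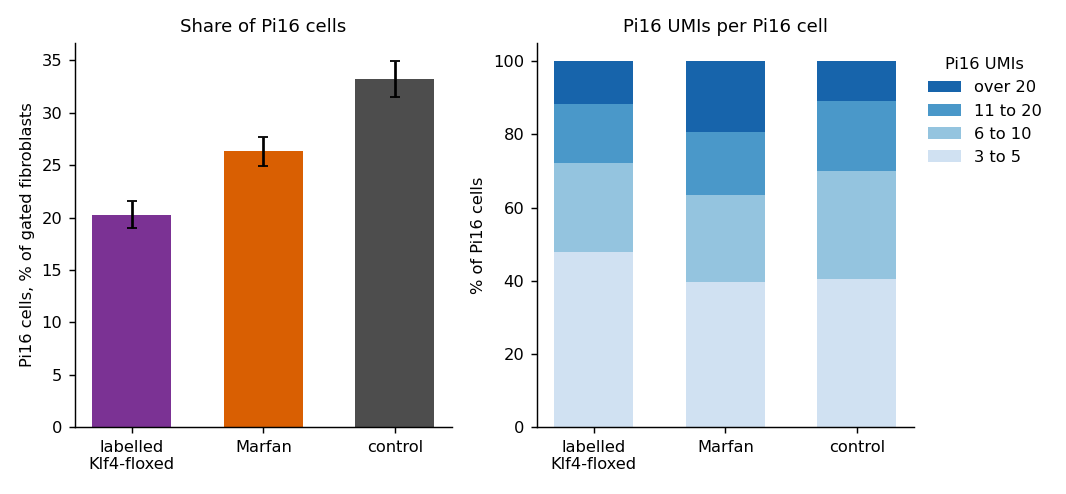
Left, Pi16 cells as a percentage of gated fibroblasts in each lineage-negative library, with 95% Clopper-Pearson intervals. Right, Pi16 cells of each library divided by their own number of Pi16 UMIs. The share was 20.3% in the library labelled Klf4-floxed, 26.3% in Marfan and 33.2% in control, and the class of over 20 Pi16 UMIs was the largest in the Marfan library, at 19.3% of Pi16 cells.

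The label was checked against the other markers fixed for it. Pi16 lies on chromosome 17 (29317680 to 29330593, plus strand, mm10), Clec3b on chromosome 9 (123150946 to 123157432, plus strand) and Scara5 on chromosome 14 (65666403 to 65764826, plus strand), each a protein-coding gene counted over its annotated transcripts. Clec3b, which encodes tetranectin, a plasminogen-binding lectin, had 705, 1015 and 1291 CPM in Pi16 cells of the libraries labelled Klf4-floxed, Marfan and control, against 102, 210 and 204 CPM in other gated fibroblasts. Scara5, a scavenger receptor for ferritin, had 71.6, 91.0 and 113 CPM in Pi16 cells, against 7.42, 15.4 and 18.2 CPM in the others. Both were higher in Pi16 cells of every library, by 2.27 to 2.78 (Clec3b) and 2.56 to 3.27 (Scara5) on the log2 scale, and the label was kept. Clec3b and Scara5 were lower in Marfan than in control Pi16 cells, by log2 ratios of -0.35 (interval -0.38 to -0.31) and -0.31 (-0.43 to -0.19).

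Markers of other cell types ranged widely in the Pi16 cells. Some lists hold genes of the gate: Dcn (fibroblast), Pecam1 and Cdh5 (endothelial), and Chad, Cytl1 and Epyc (valve interstitial or chondrocyte). Their sums are thus partly set by the rule. The summed level of 8 fibroblast markers was 31668, 27961 and 37003 CPM in Pi16 cells of the libraries labelled Klf4-floxed, Marfan and control. Summed endothelial markers were 12.3, 12.6 and 12.9 CPM, macrophage or monocyte markers 101, 132 and 99.9 CPM, and erythroid markers 4.7, 6.1 and 6.0 CPM. Mesothelial markers summed to 2.5, 6.8 and 0.8 CPM in Pi16 cells, against 125, 219 and 97.7 CPM in the other gated fibroblasts. Smooth muscle markers were more abundant, with 1200, 809 and 692 CPM in Pi16 cells against 1787, 1559 and 1239 CPM in the others. Neutrophil markers were 1.5, 12.4 and 3.0 CPM in Pi16 cells, highest in the Marfan library. Valve interstitial or chondrocyte markers summed to 596, 607 and 429 CPM in Pi16 cells against 585, 728 and 643 CPM in the others, and were thus not lower in Pi16 cells of the library labelled Klf4-floxed. Pericyte markers were 321, 238 and 399 CPM against 538, 415 and 508 CPM, with Higd1b at 0 in Pi16 cells of all 3 libraries. Schwann or neural markers were 159, 84.7 and 83.9 CPM against 169, 109 and 132 CPM.

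Cells with exactly 3 Pi16 UMIs (181, 197 and 167 cells) had 242, 492 and 604 CPM of Clec3b in the libraries labelled Klf4-floxed, Marfan and control, and those with 2 Pi16 UMIs (275, 241 and 262 cells) had 188, 446 and 393 CPM. Scara5 stood at 11.7, 22.5 and 41.7 CPM in cells with 3 Pi16 UMIs and at 11, 22.1 and 36.3 CPM in cells with 2. Clec3b was higher in cells with 3 than with 2 Pi16 UMIs in all 3 libraries, most so in control, and the Scara5 intervals overlapped in each library.

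Pi16 cells were next set beside the other gated fibroblasts of their own library. Because Pi16 counts of the same cells chose the members, these ratios describe the cells and were not tested. In every library 3036 genes reached 50 CPM in Pi16 cells or in the others, and of these 21 (0.692%) were at least 2-fold higher in Pi16 cells of all 3 libraries and 5 (0.165%) at least 2-fold lower. Taken singly, the library labelled Klf4-floxed had 35 genes higher (1.15%) and 10 lower (0.329%), Marfan 37 higher (1.22%) and 20 lower (0.659%), and control 52 higher (1.71%) and 43 lower (1.42%). Among the 26 that reached this level of 40 listed universal adventitial fibroblast genes, 12 were higher and 0 lower in all 3 libraries, with a median log2 ratio of 1.17 against -0.01 over all measured genes. The list was chosen with results of these data known.

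The surface proteins led. Ly6c1, a surface antigen also found on endothelium and monocytes, had 149, 380 and 137 CPM in Pi16 cells of the libraries labelled Klf4-floxed, Marfan and control, against 8.59, 26.2 and 14 CPM in the others, the highest ratio of the 21 genes in each library. Cd248, which encodes endosialin, a stromal cell receptor, had 103, 124 and 72.8 CPM against 18.3, 21 and 10.6 CPM. Ackr3, a scavenging receptor for the chemokine Cxcl12, had 163, 186 and 262 CPM against 48.0, 56.2 and 85.5 CPM. Surface proteins that restrain clotting and clear extracellular ATP were also higher in Pi16 cells. Thbd, thrombomodulin, had log2 ratios of 1.91, 1.37 and 1.90 in the 3 libraries, and Entpd2, an ectonucleotidase, 1.5, 1.41 and 1.73.

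Secreted and matrix genes formed the second group. Mfap5, a microfibril-associated glycoprotein, had 1106, 1288 and 1297 CPM in Pi16 cells against 315, 390 and 424 CPM in the others, the most abundant of the 21 genes. Nbl1, a secreted antagonist of bone morphogenetic proteins, had log2 ratios of 2.13, 1.87 and 1.98. Sema3c, a secreted guidance protein, had ratios of 2.47, 1.88 and 1.79, and Tnxb, tenascin-X, had 1.48, 1.43 and 1.34. Gfpt2, an enzyme of the hexosamine pathway that supplies hyaluronan precursors, had 1.68, 2.07 and 1.69. Fibrillin-1 itself, Fbn1, had 411, 418 and 320 CPM in Pi16 cells against 227, 217 and 190 CPM in the others, ratios of 0.86, 0.94 and 0.76 that stay under 2-fold in each library.

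Genes lower in Pi16 cells included several of contractile and mural cells. Rgs5, a regulator of G protein signalling typical of pericytes, had 59.3, 39.5 and 30.7 CPM in Pi16 cells of the libraries labelled Klf4-floxed, Marfan and control, against 194, 123 and 180 CPM in the others. Igfbp3, an insulin-like growth factor binding protein, had 44.5, 35.8 and 105 CPM against 182, 171 and 314 CPM. Gucy1a1, a subunit of the nitric oxide receptor guanylate cyclase, had log2 ratios of -1.42, -1.54 and -1.16, and Itga8, an integrin subunit of contractile cells, had -1.05, -1.19 and -1.26. Acta2, smooth muscle actin, had ratios of -0.77, -1.14 and -0.86. Apoe, the apolipoprotein, was abundant in both populations, with 5055, 3941 and 5057 CPM in Pi16 cells against 8481, 7530 and 10491 CPM. The summed smooth muscle markers given above moved with these genes, but that sum holds Acta2, so part of the likeness is built in. Rgs5 is likewise part of the pericyte sum given above. The part of smooth muscle and pericyte markers in the ratios was not tested.

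**Figure D2:**
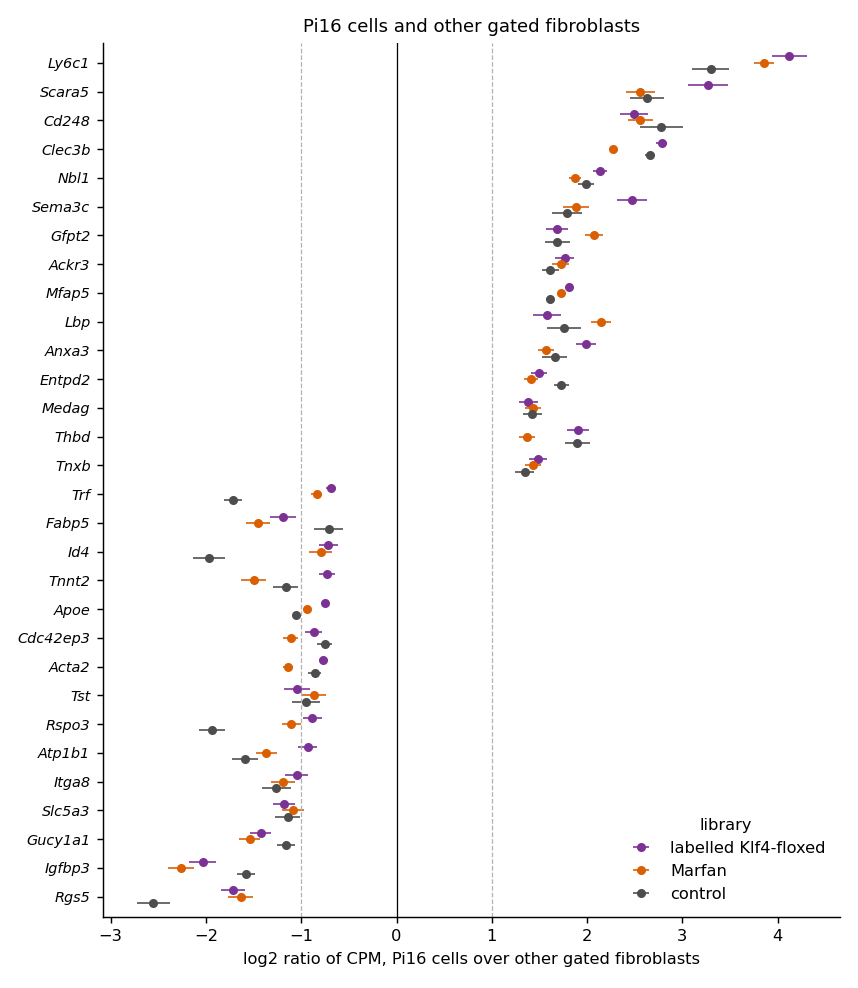
The log2 ratio of CPM in Pi16 cells over other gated fibroblasts, for the 15 genes with the highest and the 15 with the lowest ratios by the naming rule, with 95% counting intervals in each library. Dashed lines mark 2-fold. Ly6c1 was highest, at 4.12, 3.86 and 3.30 in the libraries labelled Klf4-floxed, Marfan and control, and Rgs5 was lowest, at -1.71, -1.64 and -2.55.

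Some genes often used for this cell type did not separate Pi16 cells from their neighbours in every library. Dpt, dermatopontin, had log2 ratios of -0.06, 0.05 and -0.30 in the libraries labelled Klf4-floxed, Marfan and control. Dcn, decorin, had 0.03, -0.12 and 0.01, but the gate required at least 10 Dcn UMIs of both populations, so its ratio is not read. Dpp4, the dipeptidyl peptidase that marks such cells in skin and fat, was scarce. It had 25.5, 23.1 and 6.76 CPM in Pi16 cells against 7.02, 10.1 and 8.16 CPM in the others, so that in the control library Pi16 cells had no more of it than their neighbours. Klf4, a transcription factor, had 463, 363 and 367 CPM in Pi16 cells against 323, 213 and 167 CPM in the others, higher in Pi16 cells of every library.

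The level of most universal genes followed the Pi16 count within the members, which again is a description since Pi16 set the classes. Between the members with 3 to 5 Pi16 UMIs and those with over 20, Clec3b stood at 264 and 2399 CPM in the library labelled Klf4-floxed, 551 and 1931 CPM in Marfan, and 768 and 2680 CPM in control. Cd248 stood at 24.6 and 481 CPM, 31.9 and 352 CPM, and 25.8 and 285 CPM in the same order of libraries. Fbn1 was level at 228, 227 and 235 CPM in the lowest class and reached 1161, 929 and 712 CPM in the highest. In all 3 libraries these genes were highest in the cells with the most Pi16.

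A second set of genes appeared mainly in the highest class. Dpp4 had 14.7, 6.05 and 3.59 CPM in members with 11 to 20 Pi16 UMIs in the libraries labelled Klf4-floxed, Marfan and control, and 170, 91.2 and 43.0 CPM in those with over 20. Igfbp5, an insulin-like growth factor binding protein, had 506, 246 and 982 CPM with 11 to 20 Pi16 UMIs, and 6160, 2477 and 3195 CPM with over 20. Smpd3, a neutral sphingomyelinase, had 17.1, 30.6 and 5.12 CPM with 11 to 20, and 207, 89.3 and 71.4 CPM with over 20. Each of the 3 genes was higher in the top class than in the class below it in every library.

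Other genes ran the opposite way. Hsd11b1, which regenerates active glucocorticoid, had 370, 317 and 198 CPM in members with 3 to 5 Pi16 UMIs in the libraries labelled Klf4-floxed, Marfan and control, and 58.6, 50.1 and 176 CPM in those with over 20. Gdf10, a secreted growth factor of the bone morphogenetic protein family, had 326, 336 and 282 CPM with 3 to 5, and 69.8, 73.3 and 114 CPM with over 20. In the control library Hsd11b1 was highest in the middle classes, as the plot of levels by Pi16 UMIs shows. Prss35, a secreted serine protease homologue, had 159, 120 and 44.4 CPM with 3 to 5 Pi16 UMIs, and 27.8, 4.39 and 0.77 CPM with over 20.

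**Figure D3:**
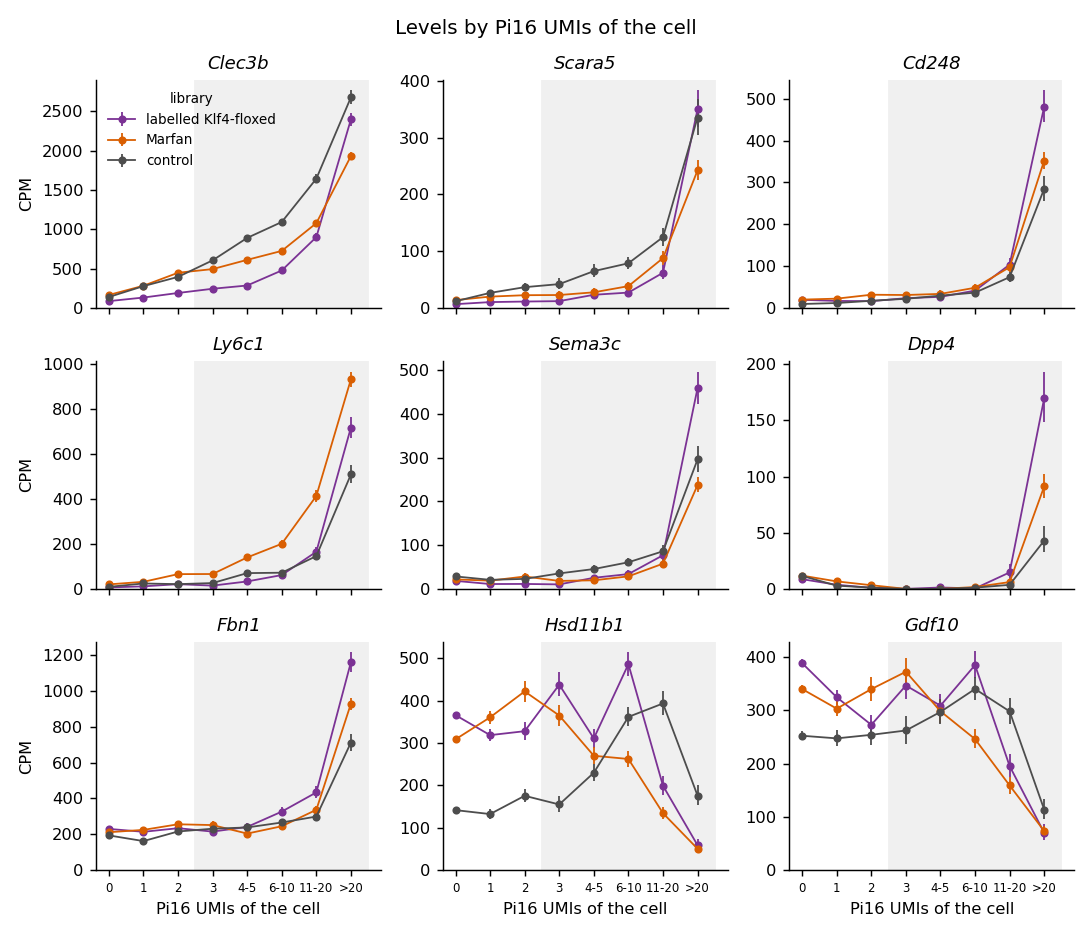
CPM of 9 genes in gated fibroblasts grouped by their own Pi16 UMIs, with 95% counting intervals, for the libraries labelled Klf4-floxed, Marfan and control. Shading marks the Pi16 cells. Clec3b, Scara5, Cd248, Ly6c1, Sema3c and Fbn1 were highest in cells with over 20 Pi16 UMIs of each library, Dpp4 reached 170, 91.2 and 43.0 CPM there, and Gdf10 was lowest in that class.

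Pi16 cells overlapped with fibroblast states that other genes define. After thinning, 30.9%, 24.0% and 42.5% of Pi16 cells in the libraries labelled Klf4-floxed, Marfan and control had at least 3 summed Hsd11b1, Gdf10 and Vegfd UMIs, against 33.0%, 32.3% and 26.2% of the other gated fibroblasts. In the control library that share was higher in Pi16 cells than in the others, with intervals of 39.1 to 45.8% and 24.1 to 28.3%, and in the Marfan library it was lower, with 21.3 to 26.8% and 30.5 to 34.1%. At least 3 summed Prss35 and Cyp2e1 UMIs were found in 8.16%, 5.22% and 2.09% of Pi16 cells, against 10.8%, 6.66% and 12% of the others. Lepr, Tcf21 and Fbln7 gave 18.0%, 15.7% and 17.2% against 15.7%, 17.4% and 18.4%, with overlapping intervals in each library. With a threshold of 1 summed UMI those shares were 45.5%, 51.1% and 53.0% of Pi16 cells against 41.9%, 45.8% and 40.4% of the others. At that threshold the intervals did not overlap in the Marfan library (47.9 to 54.3% and 43.9 to 47.8%) or the control library (49.6 to 56.4% and 38.1 to 42.8%), so the comparison depends on the threshold.

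The Marfan library was then compared with the control library within Pi16 cells. Of 6325 genes that reached 20 CPM in Marfan or control Pi16 cells, 267 (4.22%) were at least 1.5-fold higher in Marfan Pi16 cells and 322 (5.09%) at least 1.5-fold lower. The median log2 ratio of all measured genes was -0.06. Among the other gated fibroblasts of the same libraries, 188 of 6432 genes (2.92%) were higher and 154 (2.39%) lower. Of the 267 genes higher in Pi16 cells, 146 were also at least 1.5-fold higher in the others, 118 stayed under 1.5-fold and 3 were at least 1.5-fold lower. Of the 322 lower genes, 49 were also lower in the others, 271 stayed under 1.5-fold and 2 were higher. These counts rest on 1 library a genotype and carry no test.

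Secreted inflammatory genes had the highest ratios. Among 21 measured chemokines and cytokines, 15 were at least 1.5-fold higher and 0 lower in Marfan Pi16 cells, with a median log2 ratio of 3.12 (all genes, 4.22% and 5.09%). The monocyte chemokine Ccl2 had 44.4, 1300 and 31.5 CPM in Pi16 cells of the libraries labelled Klf4-floxed, Marfan and control, a Marfan over control log2 ratio of 5.37 (5.2 to 5.53). Ccl7, of the same family, had 24.5, 1164 and 29.2 CPM (5.32), and the cytokine Il6 had 18.4, 373 and 9.11 CPM (5.35). The Marfan library stood above both other libraries for each of these. In the other gated fibroblasts the Marfan over control ratios were 3.18 for Ccl2, 5.08 for Ccl7 and 7.16 for Il6, so the other fibroblasts showed it too.

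Other secreted proteins were among the highest ratios. Hp, haptoglobin, which binds free haemoglobin, had 18.9, 251 and 3.07 CPM in Pi16 cells of the libraries labelled Klf4-floxed, Marfan and control, a Marfan over control ratio of 6.35 (5.83 to 6.92). Timp1, an inhibitor of matrix metalloproteinases, had 405, 3022 and 286 CPM, a ratio of 3.40 (3.35 to 3.46). The list of proteases and their inhibitors that holds Timp1 was 5 higher and 2 lower of 19 (all genes, 4.22% and 5.09%). Without the cytokine-rich cells described below the list was 2 higher and 0 lower of 18 (all genes, 3.05% and 3.42%). Lcn2, lipocalin 2, which binds iron carriers of bacteria, had 17.2, 130 and 11.6 CPM, and Ptx3, a pentraxin of the humoral innate response, had 118, 369 and 34.8 CPM. Spp1, osteopontin, had 127, 319 and 10.9 CPM, with 248, 1801 and 22.9 CPM in the other gated fibroblasts. Chl1, a cell adhesion molecule, had 2.61, 86.5 and 1.84 CPM, and Plaur, the urokinase receptor, 5.03, 38.7 and 2.97 CPM.

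A few cells carried much of this signal. Members with at least 3 summed UMIs of Il11, Csf3 and Cxcl5 were called cytokine-rich, a split chosen after these data had been seen. They were 3 of 789 Pi16 cells in the library labelled Klf4-floxed (0.38%), 52 of 1010 in Marfan (5.15%, interval 3.87 to 6.70%) and 7 of 952 in control (0.735%). In the other gated fibroblasts they were 14, 96 and 11 cells. The 52 Marfan cells had a median of 31910.5 UMIs, against 11751 in the remaining Marfan Pi16 cells, and a median of 13 Pi16 UMIs against 7. They held 12% of all UMIs of the Marfan Pi16 cells and 88.8% of their Ccl2 UMIs. When Scrublet, a doublet caller, was used to remove the cells with the highest doublet scores, 0, 0 and 1 of the cytokine-rich members were among them in the libraries labelled Klf4-floxed, Marfan and control. The split is a raw count, which moves with depth, and these scores do not settle whether the cytokine-rich cells are doublets.

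The inflammatory genes were therefore also measured without the cytokine-rich cells. Ccl2 then had 44.0, 166 and 31.8 CPM in Pi16 cells of the libraries labelled Klf4-floxed, Marfan and control, and its Marfan over control log2 ratio was 2.38 (2.21 to 2.56). Il6 had 18.5, 30.8 and 8.94 CPM (1.79), and Ptx3 had 118, 99.2 and 35.1 CPM (1.5). Timp1 had 405, 813 and 286 CPM (1.51), while Hp kept 19.0, 127 and 3.12 CPM (5.35) and Spp1 127, 166 and 11 CPM (3.91). Each of the 12 genes with the highest ratios was still at least 2-fold higher in Marfan Pi16 cells. Among 15 chemokines and cytokines measured in the remaining cells, 8 were higher and 0 lower with a median of 0.62, beside 3.05% of all genes higher and 3.42% lower.

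At 4000 UMIs a cell, Timp1 had a UMI in 61.1%, 75.1% and 46.2% of Pi16 cells in the libraries labelled Klf4-floxed, Marfan and control, and without thinning in 85.6%, 92.8% and 69.1%. In thinned myeloid cells, at the median depths given above, the share was 1.85%, 19.8% and 1.03%. Without thinning, 77 of 1510 Marfan myeloid cells had at least 3 Timp1 UMIs, against 0 of 881 and 0 of 421 in the libraries labelled Klf4-floxed and control. Myeloid cells thus give no clean free RNA background for Timp1 in Marfan. In thinned endothelial cells the share was 15.5%, 26.1% and 13.8%. The Pi16 cells stood above both classes in each library. Whether the shares in those classes reflect expression or free RNA was not tested. The top 5% of Pi16 cells by Timp1 still held 31.6%, 81.6% and 39.6% of its UMIs. For Ccl2 the top 5% held 86.7%, 94.5% and 94.2%, so in each library Ccl2 came from a small part of the Pi16 cells.

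**Figure D4:**
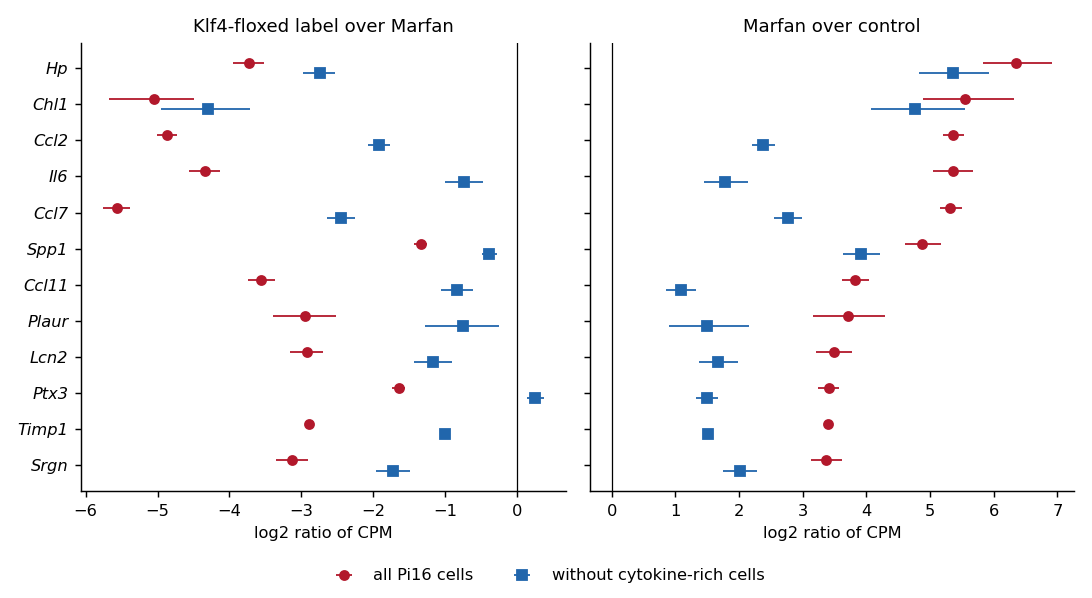
The log2 ratio of CPM in Pi16 cells, library labelled Klf4-floxed over Marfan (left) and Marfan over control (right), for the 12 genes with the highest Marfan over control ratios, in all Pi16 cells and without the cytokine-rich cells, with 95% counting intervals. Without those cells the Marfan over control ratio of Ccl2 was 2.38 and not 5.37, and all 12 remained above 1 on the log2 scale.

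Universal adventitial genes differed unequally between Marfan and control Pi16 cells. Of 33 measured members of the list, 12 were at least 1.5-fold higher and 0 lower, with a median log2 ratio of 0.38 (all genes, 4.22% and 5.09%). Ly6a, the stem cell antigen Sca-1, had 1162, 1806 and 860 CPM in the libraries labelled Klf4-floxed, Marfan and control, a Marfan over control ratio of 1.07 (1.04 to 1.11) against 0.28 in the others. Ly6c1, given above, had a ratio of 1.47 (1.38 to 1.55), against 0.91 in the others. Prg4, lubricin, had 981, 1123 and 425 CPM (1.4), and Tmem100, a membrane protein of vessel development, 194, 202 and 117 CPM (0.79, against -0.45 in the others). Ly6a and Ly6c1 were higher in Marfan than in control in each Pi16 class, by 0.60 to 1.12 for Ly6a and 0.87 to 1.5 for Ly6c1. Cd248, at 0.76 over all Pi16 cells, had ratios of 0.30 to 0.41 within classes, below the 1.5-fold mark, and the larger share of high-Pi16 cells in Marfan moved with it. By class, 5 universal genes were higher and 6 lower of 29 in members with 3 to 5 Pi16 UMIs (all genes, 2.62% higher and 4.77% lower), 5 and 6 of 27 with 6 to 10 (5.67% and 8.26%), 10 and 3 of 31 with 11 to 20 (8.49% and 11.7%), and 8 and 0 of 34 with over 20 (6.7% and 11.2%). The count of 0 lower over all Pi16 cells thus did not hold within the 3 lower classes.

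Hyaluronan genes also stood higher. Of 8 measured, 5 were at least 1.5-fold higher and 0 lower in Marfan Pi16 cells (all genes, 4.22% and 5.09%). Their median log2 ratio was 0.88, while 1 of 7 was higher in the other gated fibroblasts (all genes, 2.92%). Tnfaip6, which cross-links hyaluronan, had 83.4, 228 and 43.0 CPM in Pi16 cells of the libraries labelled Klf4-floxed, Marfan and control, a ratio of 2.41 (2.26 to 2.56) against 0.49 in the others. Has1, a hyaluronan synthase, had 28.1, 62.5 and 14 CPM (2.16). Ugdh, which makes the sugar nucleotide for hyaluronan, had 164, 240 and 112 CPM (1.10, against 0.00 in the others). Without the cytokine-rich cells the ratios were 1.48 for Tnfaip6, 1.70 for Has1 and 0.77 for Ugdh.

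Matrix genes went in both directions. Of 19 measured elastic fibre and microfibril genes, 4 were higher and 3 lower, beside 4.22% of all genes higher and 5.09% lower. The higher ones were Efemp1, Emilin2, Lox and Loxl2, of which Lox was not past 1.5-fold without the cytokine-rich cells. The lower ones were Eln, Ltbp1 and Mfap4. Eln, elastin, had 239, 177 and 362 CPM in Pi16 cells of the libraries labelled Klf4-floxed, Marfan and control, a Marfan over control ratio of -1.03 (-1.11 to -0.96), and 181, 185 and 166 CPM in the other gated fibroblasts, a ratio of 0.16. Mfap4, a microfibril-associated protein, had 624, 424 and 1062 CPM (-1.32, against -0.71 in the others). The Eln ratio was -0.37 in members with 3 to 5 Pi16 UMIs, -0.73 with 6 to 10, -1.62 with 11 to 20 and -1.95 with over 20. Elastin was thus lower in Marfan than in control in every class, and most so in the cells with the most Pi16. Of 20 collagen and collagen-processing genes, 1 was higher and 0 lower, near the shares over all genes.

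Genes of the myofibroblast list were 5 higher and 1 lower of 16 in Marfan Pi16 cells, beside 4.22% of all genes higher and 5.09% lower. Cthrc1, a secreted glycoprotein of activated fibroblasts, had 43.4, 36.7 and 5.22 CPM in the libraries labelled Klf4-floxed, Marfan and control, a Marfan over control ratio of 2.81 (2.39 to 3.26). Comp, cartilage oligomeric matrix protein, had 365, 410 and 188 CPM (1.13), and the lower gene of the list was Myl9. Fn1, fibronectin, which is not on that list, had 169, 278 and 139 CPM (1). Both Marfan-background libraries stood above control for Cthrc1 and Comp, while the library labelled Klf4-floxed lay near control for Fn1. Of 15 bone morphogenetic protein and growth differentiation factor genes, 0 were higher and 1 lower, near the shares over all genes. The lower gene was Bmp4, with 59.0, 47.0 and 115 CPM (-1.29, against -0.11 in the others). Of 20 genes of transforming growth factor β signalling, 2 were higher and 3 lower. Among the lower ones was Tgfbi, an induced matrix protein gene, with 260, 177 and 302 CPM (-0.77, against 0.30 in the others).

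Genes of folding in the endoplasmic reticulum were 8 higher and 0 lower of 18 in Marfan Pi16 cells, with a median of 0.53 (all genes, 4.22% higher and 5.09% lower). In the other gated fibroblasts 9 of 18 were higher (all genes, 2.92%). Sdf2l1, an endoplasmic reticulum chaperone cofactor, had 77.7, 152 and 52.5 CPM (1.53) in Pi16 cells of the libraries labelled Klf4-floxed, Marfan and control. Without the cytokine-rich cells 5 of 18 were higher (all genes, 3.05%). The metal-binding metallothioneins had 584, 3322 and 918 CPM for Mt1 (1.86) and 130, 1110 and 235 CPM for Mt2 (2.24), with ratios of 0.66 and 1.03 without the cytokine-rich cells. Complement genes were 3 higher and 1 lower of 11 (all genes, 4.22% higher and 5.09% lower). C4b had 232, 349 and 212 CPM (0.72, against -0.16 in the others). Circadian clock genes were 1 higher and 5 lower of 9, with a median of -0.61 (all genes, 4.22% and 5.09%). Without the cytokine-rich cells they were 1 higher and 2 lower of 9 (all genes, 3.05% and 3.42%), where Tef and Hlf stayed lower. The sampling time is not given in the sources used here.

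Interferon-induced and class I presentation genes were 4 higher and 2 lower of 20 over all Marfan Pi16 cells, with a median of 0.30 (all genes, 4.22% and 5.09%). In members with 11 to 20 Pi16 UMIs, 15 of 20 were higher and 1 lower, against the 8.49% of all genes given above, and with over 20 Pi16 UMIs 12 of 19 were higher and 0 lower. In members with 3 to 5 Pi16 UMIs, 0 were higher and 4 lower of 20, and with 6 to 10, 2 and 3. Isg15, a ubiquitin-like protein induced by interferon, had 361, 690 and 212 CPM with 11 to 20 Pi16 UMIs in the libraries labelled Klf4-floxed, Marfan and control, and 453, 329 and 404 CPM with 3 to 5. Over all Pi16 cells the top 5% held 64.3%, 65.3% and 87.3% of Isg15 UMIs, so a small part of the cells held most of it in each library. For the library labelled Klf4-floxed over Marfan the same list gave 5 higher and 0 lower of 20 with 3 to 5 Pi16 UMIs (all genes, 2.53% and 2.47%), 1 and 5 with 6 to 10 (4.88% and 4.37%), 0 and 9 with 11 to 20 (8.46% and 6.18%), and 1 and 10 of 19 with over 20 (7.89% and 6.13%).

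The 12 genes with the lowest Marfan over control ratios had 20.9 to 105 CPM in control Pi16 cells. Hhip, which binds and restrains hedgehog ligands, had 15, 7.51 and 55.8 CPM in Pi16 cells of the libraries labelled Klf4-floxed, Marfan and control, a Marfan over control ratio of -2.89 (-3.21 to -2.58) against -1.19 in the others. Pla2g7, the enzyme that breaks down platelet activating factor, had 8.14, 3.35 and 24.3 CPM (-2.86). Aspa, aspartoacylase, had 21.5, 16.1 and 56.0 CPM (-1.80), and Dapk2, a calmodulin-regulated kinase, 27.4, 13.2 and 52.2 CPM (-1.99, against -0.05 in the others). For each of these the control library stood above both Marfan-background libraries. Ptgfr, the prostaglandin F receptor, had 12.3, 13.1 and 44.2 CPM (-1.76), Flt3l, the ligand of the FLT3 receptor, 51.8, 33.1 and 105 CPM (-1.67), and Mme, the peptidase neprilysin, 12.4, 13.7 and 43.0 CPM (-1.65).

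Genes of growth factor signalling were also lower. Wnt5a, a Wnt ligand, had 151, 94.9 and 197 CPM (-1.06, against -0.36 in the others), and Pdgfra, the platelet-derived growth factor receptor of fibroblasts, had 204, 213 and 397 CPM (-0.90, against -0.17 in the others). Pdgfra was lower in Marfan than in control in each Pi16 class, by -0.63 to -1.13 on the log2 scale. Nr2f2, a nuclear receptor of venous and mesenchymal cells, had 137, 105 and 187 CPM (-0.84, against 0.10 in the others). Hhip, Aspa, Flt3l and Wnt5a were likewise lower in Marfan than in control in every Pi16 class.

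**Figure D5:**
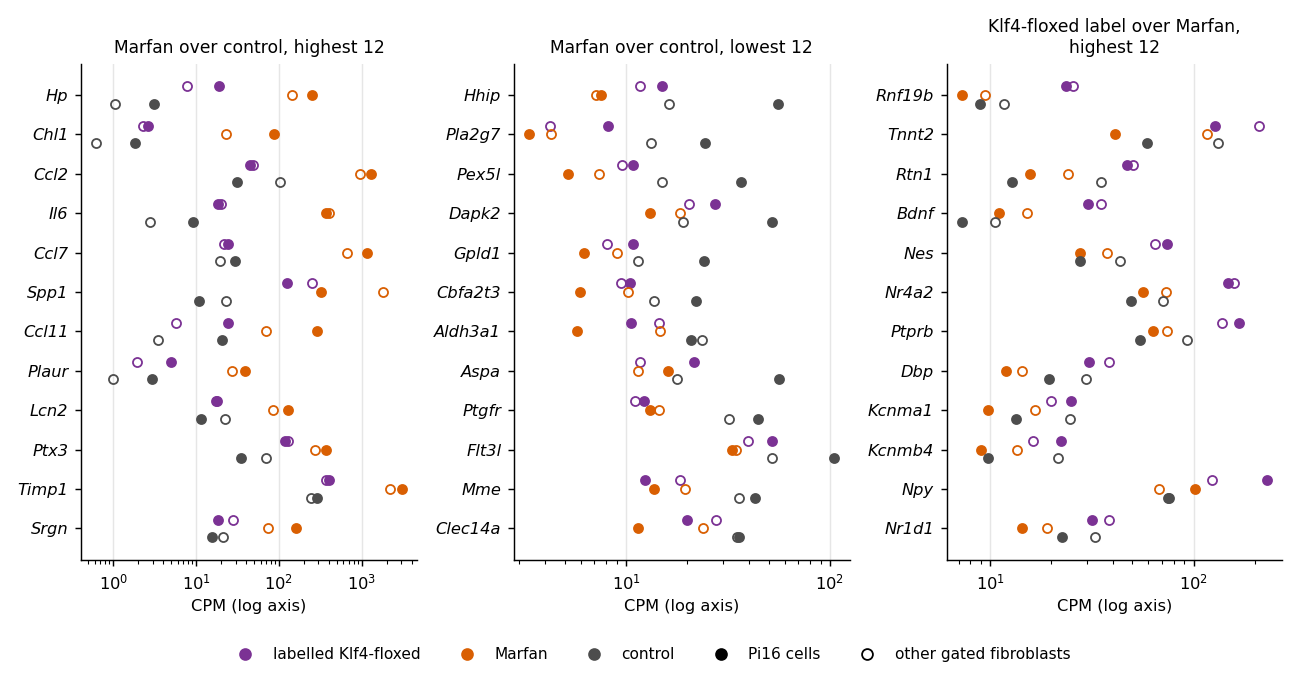
CPM, on a log axis, of the 12 genes with the highest and the 12 with the lowest Marfan over control ratio and the 12 with the highest ratio of the library labelled Klf4-floxed over Marfan, in Pi16 cells (filled) and other gated fibroblasts (open). Hp stood at 18.9, 251 and 3.07 CPM and Hhip at 15, 7.51 and 55.8 CPM in Pi16 cells of the libraries labelled Klf4-floxed, Marfan and control.

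The library labelled Klf4-floxed was last compared with the Marfan library, which also entered the comparison above, so opposite signs in both sets of ratios are not independent. Of 6239 genes, 196 (3.14%) were at least 1.5-fold higher and 183 (2.93%) at least 1.5-fold lower in Pi16 cells of the library labelled Klf4-floxed, and the median log2 ratio was 0.03. In the other gated fibroblasts 83 of 6295 (1.32%) were higher and 130 (2.07%) lower. Klf4 itself had 463 CPM in Pi16 cells of the library labelled Klf4-floxed and 363 CPM in Marfan, a ratio of 0.35 (0.29 to 0.41) against 0.60 in the others.

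The genes with the lowest ratios included chemokines and cytokines. Of 21 chemokines and cytokines, 1 was higher and 17 lower, with a median of -2.76 (all genes, 3.14% higher and 2.93% lower). Ccl7 had a ratio of -5.57 (-5.76 to -5.39), Ccl2 -4.87, Il6 -4.34, Hp -3.73, Mt2 -3.09 and Timp1 -2.90. Without the cytokine-rich cells (3 in the library labelled Klf4-floxed and 52 in Marfan), 1 of 15 chemokines and cytokines was higher and 6 lower, beside 2.04% of all genes higher and 1.67% lower. Ccl7 then had a ratio of -2.45, Ccl2 -1.91, Timp1 -1.01, Hp -2.74 and Il6 -0.74, and Ptx3 had 0.26 in place of -1.64. Complement genes were 0 higher and 5 lower of 11 with those cells (all genes, 3.14% and 2.93%) and without them (2.04% and 1.67%). C3 had 451 CPM in the library labelled Klf4-floxed and 789 CPM in Marfan (-0.81, but 0.0475 in members with over 20 Pi16 UMIs).

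The genes higher in the library labelled Klf4-floxed came from several groups. Tnnt2, cardiac troponin T, had 127 CPM in its Pi16 cells and 41.2 CPM in Marfan, a ratio of 1.63 (1.48 to 1.77) against 0.86 in the others. Summed cardiomyocyte markers were 131, 45.6 and 64.4 CPM in Pi16 cells of the libraries labelled Klf4-floxed, Marfan and control. Tnnt2 is itself one of those 6 markers and made up most of the sum in the libraries labelled Klf4-floxed and Marfan, so the sum largely restates Tnnt2. Summed Schwann or neural markers were 159, 84.7 and 83.9 CPM and smooth muscle markers 1200, 809 and 692 CPM in the same order of libraries. The part of those markers in the genes named here was not tested. Nr4a2, an orphan nuclear receptor induced by stimulation, had 148 and 56.1 CPM (1.4), and Ptprb, a receptor phosphatase, 167 and 63.3 CPM (1.4). Npy, neuropeptide Y, had 230 and 101 CPM (1.18), Nes, the intermediate filament nestin, 73.7 and 27.6 CPM (1.42), and Bdnf, a neurotrophin, 30.2 and 11 CPM (1.45, but -0.32 in members with over 20 Pi16 UMIs). Kcnma1 and Kcnmb4, which encode subunits of the large-conductance potassium channel, had ratios of 1.34 and 1.32, against 0.26 and 0.27 in the others.

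Immediate early and heat shock genes were 7 higher and 0 lower of 23 in Pi16 cells of the library labelled Klf4-floxed against Marfan (all genes, 3.14% and 2.93%). They were 9 higher and 0 lower of 23 in the others (all genes, 1.32% and 2.07%). Hspa1a, an inducible chaperone gene, had 1781, 971 and 813 CPM in Pi16 cells of the libraries labelled Klf4-floxed, Marfan and control. Clock genes were 3 higher and 0 lower of 9 (all genes, 3.14% and 2.93%), Dbp with 30.6 CPM in the library labelled Klf4-floxed and 12 CPM in Marfan (1.35). The Wnt list held 3 higher and 0 lower of 17 (all genes, 3.14% higher and 2.93% lower). Among the higher were Wif1, a Wnt inhibitor, with 342 and 190 CPM (0.84, but -0.30 in members with over 20 Pi16 UMIs) and Wnt5a (0.67). Without the cytokine-rich cells 1 was higher and 1 lower of 17 (all genes, 2.04% and 1.67%), and Wnt5a had 0.58, under 1.5-fold. Thbs1, the matricellular thrombospondin-1, had 658 and 328 CPM (1), and Postn, periostin, 986 and 560 CPM (0.82).

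Universal adventitial genes were 3 higher and 5 lower of 34 in Pi16 cells of the library labelled Klf4-floxed against Marfan, with a median of -0.18 (all genes, 3.14% higher and 2.93% lower). Without the cytokine-rich cells they were 2 higher and 7 lower of 34 (all genes, 2.04% and 1.67%). Ly6c1 had a ratio of -1.34 (-1.43 to -1.26) and Ly6a -0.64 (-0.67 to -0.60), against -1.61 and 0.31 in the others. Igfbp5 had 1187 and 748 CPM (0.67), but 0.52 without the cytokine-rich cells, under 1.5-fold. In members with over 20 Pi16 UMIs the count was 11 higher and 1 lower of 36, beside 7.89% of all genes higher and 6.13% lower. There Cd248 had 481 CPM in the library labelled Klf4-floxed and 352 CPM in Marfan (0.45), Dpp4 170 and 91.2 CPM (0.90), and Clec3b 2399 and 1931 CPM (0.31). Clec3b thus had ratios of opposite sign in the highest class and over all Pi16 cells, where it was -0.53 (-0.57 to -0.48).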

How the data were processed

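The authors deposited raw UMI counts per gene and barcode as matrices from Cell Ranger 6.1.2, per the file headers, made from Chromium 3′ libraries, per the labels, and on the mm10 build, per the submitters' processing notes. The 55402 features were summed to 55292 symbols with Python 3.11.15, numpy 2.4.6, scipy 1.17.1 and pandas 2.3.3. Members and gene lists were chosen with earlier results of these data known. Doublets were kept, and Scrublet (scanpy 1.11.5) was an alternative. Counts were summed over the cells of a population in a library and divided by their total (CPM). Ratios have exact conditional binomial intervals, levels Poisson intervals and shares Clopper-Pearson intervals. The scripts were tested on simulated data. Genes of the rule were left out of gene counts. Named were the 15 highest and lowest genes between Pi16 cells and other gated fibroblasts (at least 50 CPM, a UMI in 20% of cells), the 12 highest and lowest of each genotype comparison (at least 20 CPM, a UMI in 10% of cells), and up to 4 genes a list. Cells were thinned to 4000 UMIs for shares.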

Additional observations from a re-analysis of the deposited data

Results flagged for a closer look

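The Marfan over control ratio of Cyp2e1, a cytochrome P450 enzyme, was 0.76 in Pi16 cells and -1.21 in the other gated fibroblasts of the same libraries. Prss35, a secreted serine protease homologue, had ratios of 1.27 and -0.67 in the same populations. Both were named because the ratio had opposite signs, past 1.5-fold, in Pi16 cells and in their neighbours, and the difference was not tested. Cyp2e1 had 58.4, 44.5 and 26.2 CPM in Pi16 cells of the libraries labelled Klf4-floxed, Marfan and control, against 108, 62.7 and 145 CPM in the others. Prss35 had 130, 66.9 and 27.7 CPM against 108, 61.2 and 97.1 CPM. In the control library both genes were lower in Pi16 cells than in the others, by log2 ratios of -2.47 and -1.81, while in the Marfan library the ratios were -0.49 and 0.13. With 1 library a genotype, no check for samples far from their group could be made.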

How the results depend on the processing

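No paired analysis was possible because each genotype had 1 library and the labels give no replicate numbers; for the same reason no library could be left out. The share of Pi16 cells among gated fibroblasts in the libraries labelled Klf4-floxed, Marfan and control was 12.4%, 18.2% and 23.3% at 5 Pi16 UMIs, 27.3%, 32.6% and 42.3% at 2, 17.9% and 24.1% in the first 2 at 3 Pi16 UMIs per 10000 UMIs, and 28.5%, 34.1% and 43.8% with a Pi16 UMI in cells thinned to 4000 UMIs, in the same order each time. Genes at least 2-fold lower in Pi16 cells in every library numbered 11 at 5 Pi16 UMIs, 2 at 2, 13 at 3 per 10000 and 8 against cells without Pi16. With no minimum level, 111 genes were higher and 340 lower in Pi16 cells, 1426 higher and 1906 lower in Marfan against control, and 1509 higher and 1253 lower in Klf4-floxed against Marfan. With a minimum of 100 CPM the last 2 comparisons gave 88 and 94, and 55 and 55. With each cell counting alike, 125 genes were higher in the library labelled Klf4-floxed than in Marfan. 3 alternatives were chosen after seeing the data. In members with over 20 Pi16 UMIs the comparisons gave 426 higher and 710 lower, and 498 and 387. Without the cytokine-rich cells the last gave 127 and 104. Signs changed in Marfan over control for Id4 (-0.077) at 5 Pi16 UMIs, for Adamts1 (-0.14) without the cytokine-rich cells, and with over 20 Pi16 UMIs for Fabp4 (-0.93), Gucy1a1 (0.24), Id4 (-0.24), Rsad2 (2.03) and Trf (-0.12). For the library labelled Klf4-floxed over Marfan they changed for Rsad2 (-0.18) at 5 Pi16 UMIs, Adgrd1 (0.0163) with Pi16 classes weighted alike, Ptx3 (0.26) without the cytokine-rich cells, and with over 20 Pi16 UMIs for Adgrd1 (0.13), Adm (0.10), Bdnf (-0.32), C3 (0.0475), Fn1 (0.18), Gadd45b (-0.0274), Has1 (0.0306), Hbegf (-0.57), Ntf3 (-0.61), Rgs5 (-1.15), Rsad2 (-4.06) and Wif1 (-0.30). The cause was not tested. Of named genes past their fold, 94 of 119 between Pi16 cells and the others, 81 of 131 between Marfan and control and 48 of 99 between the library labelled Klf4-floxed and Marfan stayed past it under each alternative. Depth limits genes near 20 CPM, which rest on the fewest UMIs.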

Other observations

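The genes with the largest variance divided by mean among Pi16 cells at equal depth included matrix, protease inhibitor and interferon-induced genes. This measure tends to be larger for abundant genes, so it does not rank relative spread. At 4000 UMIs a cell, the variance divided by the mean had a median of 1.07 over 1820 genes. Mgp, matrix Gla protein, an inhibitor of calcification, had 186, 153 and 75.8 in the libraries labelled Klf4-floxed, Marfan and control. Its means were 108, 90.3 and 89.5 UMIs a cell, against 0.38, 1.16 and 1.23 for Cxcl10. Cst3, the protease inhibitor cystatin C, had 65.0, 53.3 and 35.9, and Igfbp5 had 59.0, 51.0 and 33.9 with a UMI in 38.2%, 30.7% and 36.7% of cells. Cxcl10, a chemokine induced by interferon, had 25.0, 130 and 96.7, with a UMI in 5.53%, 5.12% and 4.87% of Pi16 cells. Cxcl10 levels over all Pi16 cells were 125, 435 and 400 CPM. In thinned myeloid cells a Cxcl10 UMI was found in 21%, 20.8% and 16.8%, and in thinned endothelial cells in 2.43%, 3.95% and 2.5%. Without thinning, 15.6%, 14.9% and 13.1% of myeloid cells had at least 3 Cxcl10 UMIs, so they give no free RNA background for it. The shares in Pi16 cells lay within the endothelial intervals of 0.79 to 5.57%, 1.91 to 7.15% and 0.30 to 8.74%. Whether they reflect expression or free RNA was not tested.

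Cxcl14, a chemokine, had 21, 54.9 and 0.819 CPM in Pi16 cells of the libraries labelled Klf4-floxed, Marfan and control, against 3.20, 142 and 1.25 CPM in the other gated fibroblasts. It was higher in both Marfan-background libraries than in control among Pi16 cells, while among the other fibroblasts the Marfan library alone stood far above control. Trf, transferrin, had 367, 205 and 110 CPM in Pi16 cells, against 591, 367 and 362 CPM in the others. The Marfan over control ratio of Trf was 0.89 in Pi16 cells and 0.02 in the others, and -0.12 in members with over 20 Pi16 UMIs.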
